A study of Drosophila melanogaster with 6 samples.

Results

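The coat protein complex II (COPII) genes are 7 of the 17737 genes in the deposited tables: Sar1, Sec23, Sec24AB, Sec24CD, Sec13, Sec31 and Sec16. They were chosen by gene symbol, as the coat that carries cargo out of the endoplasmic reticulum (ER), at a time when the counts of Sec31 in both genotypes were already known. Every value that sets Stromalin KD against control is therefore given as a description of these libraries, without a p-value for any member. All 7 symbols matched a single row, and 6 of the 7 passed the count filter of the comparison (at least 10 counts in at least 2 libraries), the exception being Sec13.

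RNA-sequencing was carried out on GFP-marked PPL1-γ1pedc dopamine neurons picked by hand from dissociated brains of Drosophila larvae aged 120 h after egg laying, with 25 neurons pooled in each library. There were 3 Stromalin KD libraries, with UAS-Stromalin RNAi driven by ∆TH-D'-GAL4, and 3 control libraries without the RNAi transgene. Both genotypes also carried UAS-dicer2 and UAS-mCD8:GFP under the same driver, which at this age marks the few PPL1-γ1pedc neurons and no other central brain neurons strongly. Each library came from many larvae and was collected on its own day, so p-values measure the spread between pools collected on different days.

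In COPII transport the small GTPase Sar1 is switched on at the ER membrane and recruits Sec23 and Sec24, which form the inner coat. Sec24 binds the cargo and Sec23 speeds GTP hydrolysis by Sar1, while Sec13 and Sec31 build the outer cage that bends the membrane into a bud and Sec16 organizes the exit sites where this takes place. Neurons send newly made membrane, receptors, neuropeptides and synaptic vesicle proteins through this route. In Drosophila sensory neurons, loss of Sar1 or Sec23 stunts dendrites more than axons, and loss of Sec23 or Sec24CD disturbs the growth and filling of tracheal tubes in the embryo.

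Counts in genes ran from 8638734 to 9624935 in Stromalin KD libraries and from 7790921 to 9625056 in control libraries, of which rRNA genes took 18.8% to 21.5% and 16.6% to 30.3%. Between 2352 and 3732 genes reached 10 counts in Stromalin KD and between 2298 and 4004 in control. The dopamine markers Vmat, DAT, ple and Ddc and all 8 pan-neuronal markers reached 10 counts in every library, while the glial genes repo, alrm, wrapper and gcm and the neuroblast genes dpn, ase, wor and mira had 0 counts in all 6. The other 5 of 9 glial genes had counts in some libraries, led by nrv2, and the list summed to 161, 98.4 and 0 TPM in Stromalin KD 1 to 3, against 0.61, 339 and 5.49 TPM in control 1 to 3. The fifth neuroblast gene, grh, had 0, 681 and 800 counts in Stromalin KD 1 to 3, against 0, 244 and 0 counts in control 1 to 3. The targeted gene SA, which encodes Stromalin, had 3, 0 and 0 counts in Stromalin KD 1 to 3, against 0, 0 and 1372 counts in control 1 to 3, so that its counts came almost entirely from control 3 and can hardly check the labels. Fat body and blood cell genes summed to 0.217, 69.96 and 756 TPM (counts scaled for gene length and library total) in Stromalin KD 1 to 3, against 0.123, 1507 and 0 TPM in control 1 to 3. Control 2 had 7 of these 14 genes at 10 counts or more.

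Most of the COPII genes, but not all, were found in most libraries. Of the 42 combinations of 7 genes and 6 libraries, 29 (69.0%) held at least 10 counts, 4 held 1 to 9 counts and 9 held 0 counts. Over the 4093 tested genes, which leave out Sec13, the share at 10 counts or more was 65.5%. Over the 6922 genes with any count it was 43.6%. In no library did all 7 genes reach 10 counts. The number that did was 5, 6 and 5 in Stromalin KD 1 to 3, against 3, 5 and 5 in control 1 to 3. Of the 6922 genes, 53.9%, 46.2% and 34.0% reached 10 counts in Stromalin KD 1 to 3, against 36.6%, 57.8% and 33.2% in control 1 to 3. Sec16 and Sec24AB were found at this level in all 6 libraries, Sar1 and Sec24CD in 5, Sec23 and Sec31 in 3, and Sec13 in 1.

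**Figure D1:**
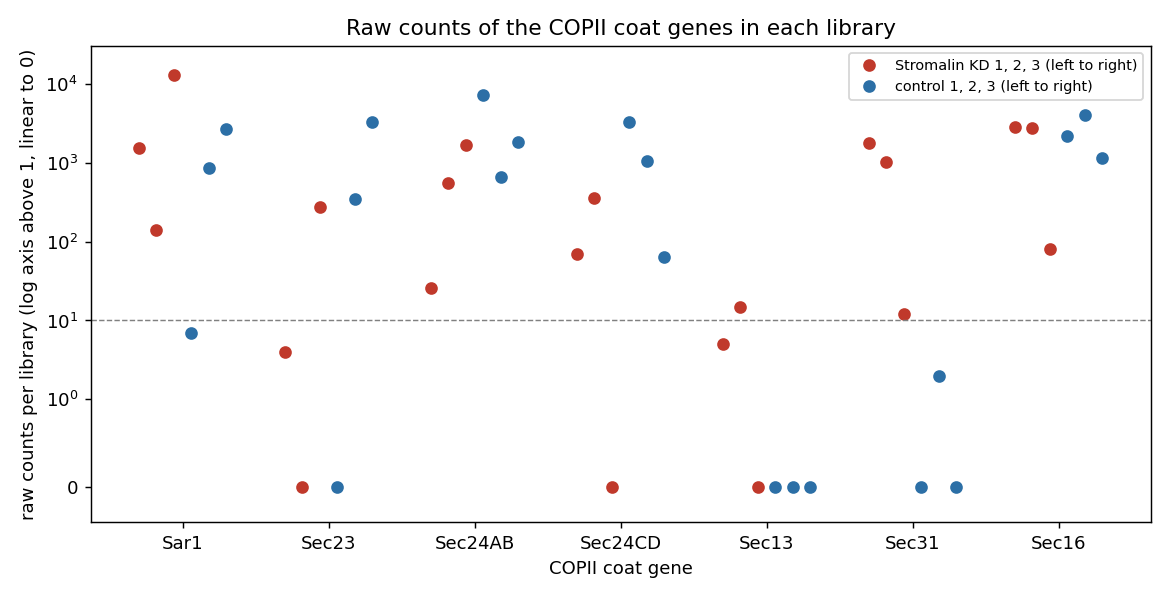
Raw counts (y axis, logarithmic above 1) of the 7 COPII coat genes (x axis) in each Stromalin KD library (red) and each control library (blue), with a dashed line at 10 counts. Sec31 reached 10 counts in the 3 Stromalin KD libraries and in no control library, while Sec13 stayed at 15 counts or fewer in all.

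Sar1, the GTPase that starts coat assembly, lies on chromosome 3R of BDGP6 (positions 22356685 to 22360711, plus strand). It had 1511, 138 and 12698 counts in Stromalin KD 1 to 3, against 7, 842 and 2684 counts in control 1 to 3. Both groups ran from low to high and overlapped over most of their range. Expressed in TPM these were 251, 24.3 and 2491 in Stromalin KD, against 1.248, 147 and 516 in control. In Stromalin KD 3, Sar1 stood above 99.1% of the genes with a count in that library, and in control 1 above 14.8%. The log2 fold change was 1.98 (SE 1.54, n = 3 per group, Stromalin KD over control, edgeR). Here and below, the SE of a log2 fold change is approximate. It was derived from the fold change and the quasi-likelihood F statistic, so it adds nothing to the test itself. Without Stromalin KD 3 it was -0.64, so its sign rested on that library.

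Sec23, the inner coat subunit that acts on Sar1, lies on chromosome 3R (positions 5649065 to 5652629, plus strand). It had 4, 0 and 277 counts in Stromalin KD 1 to 3, against 0, 348 and 3296 counts in control 1 to 3. Each group held a library at 0, and control 3 alone held 86.5% of the normalized signal over all 6. Its mean was 11.8 ± 20.1 TPM in Stromalin KD and 149 ± 225 TPM in control (SD, n = 3 each), with a log2 fold change of -3.79 (SE 3.65). Leaving out control 3 brought this to -0.59 and leaving out Stromalin KD 3 to -9.33, which shows how far 1 pool of neurons moved the value.

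Drosophila has 2 Sec24 genes, Sec24AB on chromosome 2R (positions 9876232 to 9882357, minus strand) and Sec24CD on chromosome 2L (positions 2231106 to 2236844, minus strand), which encode the subunits that select cargo. Sec24AB had 26, 549 and 1676 counts in Stromalin KD 1 to 3, against 7167, 654 and 1808 counts in control 1 to 3. Stromalin KD 1 was far below the rest and control 1 far above, while the other libraries of both groups lay side by side. Sec24CD had 69, 357 and 0 counts in Stromalin KD 1 to 3, against 3300, 1041 and 63 counts in control 1 to 3. The groups overlapped through control 3, the lowest control, which stood close to Stromalin KD 1 and below Stromalin KD 2. Sec24AB averaged 52.5 ± 61.3 TPM in Stromalin KD and 213 ± 226 TPM in control, and Sec24CD 9.30 ± 12.6 TPM in Stromalin KD and 98.0 ± 111 TPM in control (SD, n = 3 each). In both cases the difference between the means was smaller than the SD in control.

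The log2 fold change was -2.35 (SE 1.88) for Sec24AB and -3.75 (SE 3.33) for Sec24CD. Both were negative in each of the 6 fits that left out 1 library, at -3.96 to -0.81 for Sec24AB and -5.63 to -1.94 for Sec24CD, and both came closest to 0 without control 1. That library had the highest rRNA share, at 30.3%, and the highest count of each Sec24 gene. Scaled by total counts alone, the log2 fold changes were -2.25 for Sec24AB and -3.58 for Sec24CD. With rRNA genes left out of these totals they were -2.41 and -3.73. The part of the rRNA share in the pull of control 1 was not tested. The balance between the 2 genes also changed from pool to pool. Sec24AB made up 26.9%, 60.0% and 100% of the summed Sec24 TPM in Stromalin KD 1 to 3, against 67.9%, 38.0% and 96.5% in control 1 to 3. Either gene could lead in either genotype.

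Sec31, the large outer coat subunit, lies on chromosome 2R (positions 8893613 to 8898798, plus strand). It had 1781, 1025 and 12 counts in Stromalin KD 1 to 3, against 0, 2 and 0 counts in control 1 to 3. The groups did not overlap, yet Stromalin KD 3, with 12 counts (95% Poisson interval 6.20 to 21.0, counting error only), was nearer to control 2 than to the other Stromalin KD libraries. In TPM the values were 130, 78.8 and 1.03 in Stromalin KD, against 0, 0.153 and 0 in control. Sec31 passed the count filter only through Stromalin KD libraries, so a gene in its place was bound to be higher there. In such pooled neurons, fewer cells with a transcript and less of it per cell cannot be told apart. Over the summed libraries the ratio was 1290 (from 2818 counts against 2). It pools reads over libraries that differed widely, so it is a description and no test of the genotypes. The fitted log2 fold change was 10.29 (SE 5.68), and it ranged from 9.33 to 12.74 when 1 library was left out, while on the log2(TPM + 1) scale it was 4.72.

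Sec31 shared its separation of the groups with many genes. In 271 of the 4093 tested genes (6.62%) the normalized CPM (counts scaled to library size) of the groups did not overlap, and among the 6 tested COPII genes this held for Sec31 alone. Of all tested genes, 5.40% had a fold change at least as large in absolute log2. Markers of other transmitter types summed to 261, 59.1 and 254 TPM in Stromalin KD 1 to 3, against 13.4, 0 and 55.7 TPM in control 1 to 3. Most of this was the vesicular GABA transporter VGAT, with 1762, 500 and 1737 counts in Stromalin KD 1 to 3, against 112, 0 and 0 counts in control 1 to 3. VGAT was the only gene of that list to pass the count filter and was not called. Of its other 8 genes SerT, VAChT and VGlut had counts in 1 Stromalin KD library each, Tbh had 617 counts in control 3 alone, and ChAT, Gad1, Tdc2 and Trh had 0 counts in all 6. The part of these genes in the Sec31 values was not tested.

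Sec13, the small outer coat subunit that pairs with Sec31 in the cage, lies on chromosome 3R (positions 23356278 to 23358531, plus strand). It had 5, 15 and 0 counts in Stromalin KD 1 to 3, against 0, 0 and 0 counts in control 1 to 3. With at most 15 counts (95% Poisson interval 8.40 to 24.7) and overlapping groups, no difference could be made out at this depth. In its highest library Sec13 reached 2.65 TPM, while its partner Sec31 was at 78.8 TPM there. With 0 counts in a control library, counting error alone allows up to 0.312 to 0.385 CPM (3 counts per library). Transcripts lost before sequencing are not covered, so this is no upper limit on the level in the neurons. Sec13 is also a subunit of the nuclear pore and of the GATOR2 complex of nutrient sensing, and of 11 partner genes in those complexes 7 had any count and 3 passed the filter.

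Sec16, the scaffold of ER exit sites, lies on chromosome X (positions 12596047 to 12609910, plus strand) and was the steadiest member. It had 2791, 2716 and 81 counts in Stromalin KD 1 to 3, against 2200, 3984 and 1155 counts in control 1 to 3. Stromalin KD 3 was low and the other 5 libraries, of both genotypes, lay between 1155 and 3984 counts. Its mean was 59.7 ± 49.1 TPM in Stromalin KD and 81.6 ± 44.8 TPM in control (SD, n = 3 each), a difference smaller than either SD. The log2 fold change was -0.51 (SE 1.88), and 0.05 without Stromalin KD 3.

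Ordered by mean TPM over the 6 libraries, Sar1 came first at 572 ± 958, then Sec24AB at 133 ± 172, Sec23 at 80.4 ± 161, Sec16 at 70.7 ± 43.7, Sec24CD at 53.7 ± 86.0, Sec31 at 34.9 ± 56.0 and Sec13 at 0.580 ± 1.07 (SD, n = 6). Single libraries set several of these levels and ranks. Without Stromalin KD 3 Sar1 averaged 188 TPM, without control 3 Sec23 averaged 14.9 TPM and came after Sec31, and without control 1 Sec24AB averaged 65.4 TPM and came after Sec16, with Sec24CD at 20.2 TPM. Sec31 averaged 16.0 TPM without Stromalin KD 1, and Sec13 0.167 TPM without Stromalin KD 2. No pair of neighbors in the order over all 6 libraries differed beyond its spread, since the ranges overlapped for all 6 pairs. By the median, Sec16 (80.1 TPM) moved ahead of Sec23 (17.7 TPM), and Sec31 dropped to 0.592 TPM. Only Sar1 in first place and Sec13 in last kept their rank whichever library was left out. By mean TPM, Sar1 stood above 98.1% of all genes with a count and Sec13 above 13.5%.

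Summed over the 7 genes, coat transcripts came to 475, 254 and 2650 TPM in Stromalin KD 1 to 3, against 764, 426 and 1097 TPM in control 1 to 3. Sar1 made up 52.9%, 9.55% and 94.0% of this in Stromalin KD, against 0.163%, 34.5% and 47.0% in control. The totals overlapped between genotypes. Without Sar1, a choice made after the values were seen, the sums were 224, 230 and 159 TPM in Stromalin KD, against 763, 279 and 581 TPM in control, which did not overlap. No test was made of sums trimmed in this way. The outer coat pair, Sec13 and Sec31, came to 130, 81.5 and 1.03 TPM in Stromalin KD, against 0, 0.153 and 0 TPM in control. Nearly all of this was Sec31, which passed the count filter only through Stromalin KD libraries, so the sum restates its values.

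**Figure D2:**
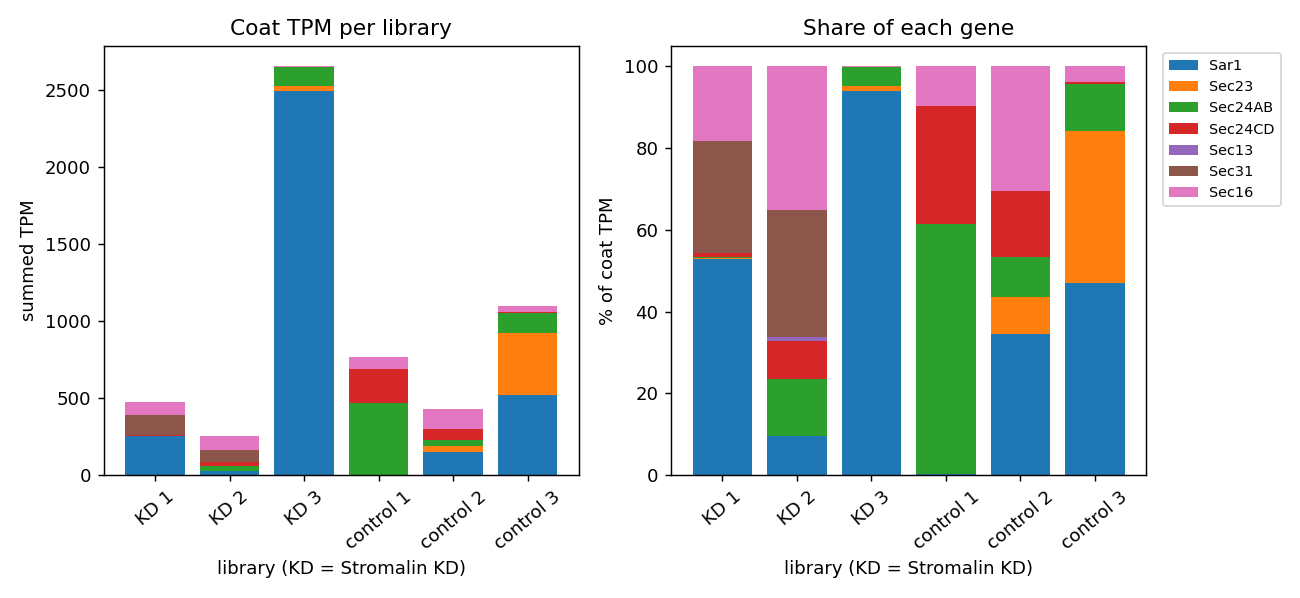
Summed TPM of the 7 COPII coat genes in each library (left) and the percent of that sum in each gene (right), with Stromalin KD libraries before control libraries on the x axis. Sar1 made up 94.0% of the sum in Stromalin KD 3 and 0.163% in control 1, and Sec31 was visible only in Stromalin KD 1 and 2.

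Each COPII gene other than Sec16 was concentrated in a single library. The highest library held 64.4% of the normalized signal of Sec24AB, 66.9% of Sec31, 71.0% of Sar1, 75.4% of Sec24CD and 86.5% of Sec23, against 26.8% for Sec16. The median over all tested genes was 57.5% (quartiles 42.5% and 77.3%), so 4 of the 6 tested members lay between the quartiles. Of all tested genes 96.1% were more concentrated than Sec16 or equal to it, and 15.2% more than Sec23 or equal to it. The leading library differed between members. It was control 1 for both Sec24 genes, control 2 for Sec16, control 3 for Sec23, Stromalin KD 1 for Sec31, Stromalin KD 2 for Sec13 and Stromalin KD 3 for Sar1.

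**Figure D3:**
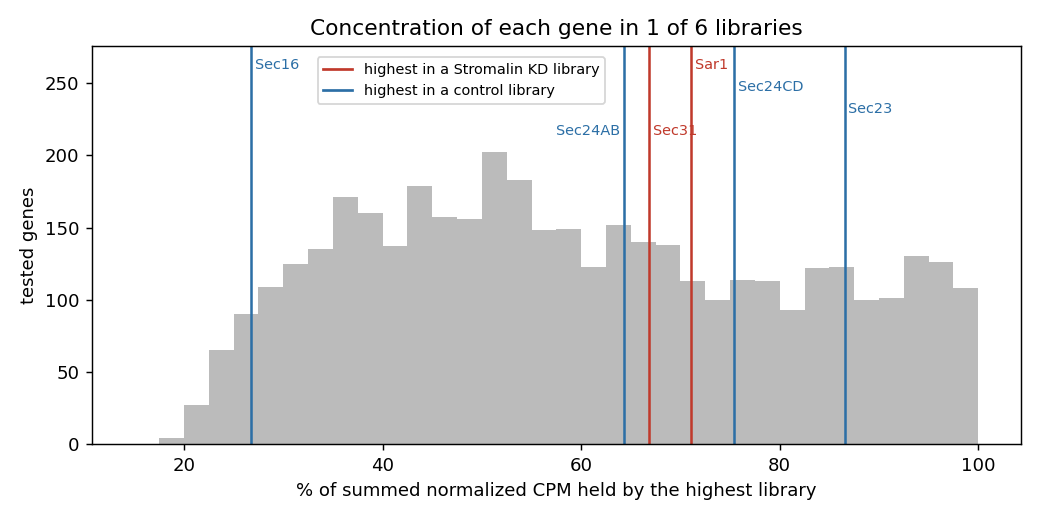
Histogram of tested genes by the percent of their summed normalized CPM found in the highest of the 6 libraries (x axis), with lines for the 6 tested COPII genes, red where that library was Stromalin KD and blue where it was control. Sec16 lay at 26.8% and the other 5 genes between 64.4% and 86.5%, around and above the median of 57.5%.

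Over the 6 libraries, which share all their other differences too, the correlation of log2(normalized CPM + 1) between COPII genes was positive in 7 of 21 pairs. Among tested members, which leave out Sec13, it was positive in 5 of 15 pairs, and over all tested genes in 4638160 of 8374278 pairs. Its median over the 15 pairs of tested members was -0.26 (quartiles -0.52 and 0.24), beside 0.08 (quartiles -0.30 and 0.41) over all pairs of tested genes. It was 0.78 for Sec16 with Sec24CD, 0.68 for Sar1 with Sec23, 0.30 for Sec24AB with Sec24CD, and 0.25 for Sec23 with Sec24AB. It was -0.43 for Sec23 with Sec24CD and -0.91 for Sar1 with Sec24CD. For Sec31 it was -0.62 with Sec23, -0.81 with Sec24AB and 0.88 with Sec13, the last resting on Sec13 counts of 15 or fewer. Both genes reached 10 counts in just 1 library for Sec31 with Sec23, and in 2 for Sec23 with Sec24CD. For the other pairs named without Sec13 this held in 3 to 5 libraries. The correlations are given as descriptions of 6 points each.

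Genes with a pattern like that of a member were looked up over the same 6 libraries. Those named are the closest of all tested genes over 6 points, so high correlations were bound to be found. For Sec31 the closest were grsm (r = 0.999), Tusp (r = 0.99) and Gmd (r = 0.99), an enzyme of GDP-fucose synthesis, and 57 tested genes (1.39%) reached 0.95. Gmd had 1157, 646 and 0 counts in Stromalin KD 1 to 3, against 0 counts in each control. grsm had 89, 87 and 4 counts in Stromalin KD 1 to 3, against 0 counts in each control. Tusp had 867, 601 and 1 counts in Stromalin KD 1 to 3, against 1, 2 and 0 counts in control 1 to 3. Like Sec31, these genes passed the count filter only through Stromalin KD libraries. For Sar1 they were CG42337 (r = 0.98), Nipped-B (r = 0.98), which loads cohesin onto DNA, and Fur1 (r = 0.98), a furin protease. Here 8 tested genes (0.196%) reached 0.95, and a link of Sar1 to cohesin loading was not tested. For Sec16 they were CG13185, Hug and CG34354 (r = 0.99 each). Hug, which encodes the neuropeptide hugin, had 30702, 12357 and 0 counts in Stromalin KD 1 to 3, against 28540, 32382 and 7209 counts in control 1 to 3, and shared with Sec16 its low value in Stromalin KD 3. For Sec23 the closest was Dp1 (r = 0.99), for Sec24AB Mlf (r = 0.96) and for Sec24CD beta-Spec (r = 0.98), which encodes a spectrin of the membrane skeleton.

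In the comparison of genotypes 0 of the 6 tested COPII genes were called by the quasi-likelihood test of edgeR (adjusted p under 0.05), where 0.0489% of all tested genes did. At an unadjusted p under 0.05 there were also 0, against 3.23% of all tested genes. DESeq2 called 1 member, Sec31, and 5.46% of the genes it gave an adjusted p, and the call on Sec31 is the result that was known when the genes were listed. Of the 6 tested members 2 had a positive fold change (Sar1 and Sec31) and 4 a negative one. Their median log2 fold change was -1.43, beside 0.07 over all tested genes, and the median size regardless of sign was 3.05, beside 1.59.

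**Figure D4:**
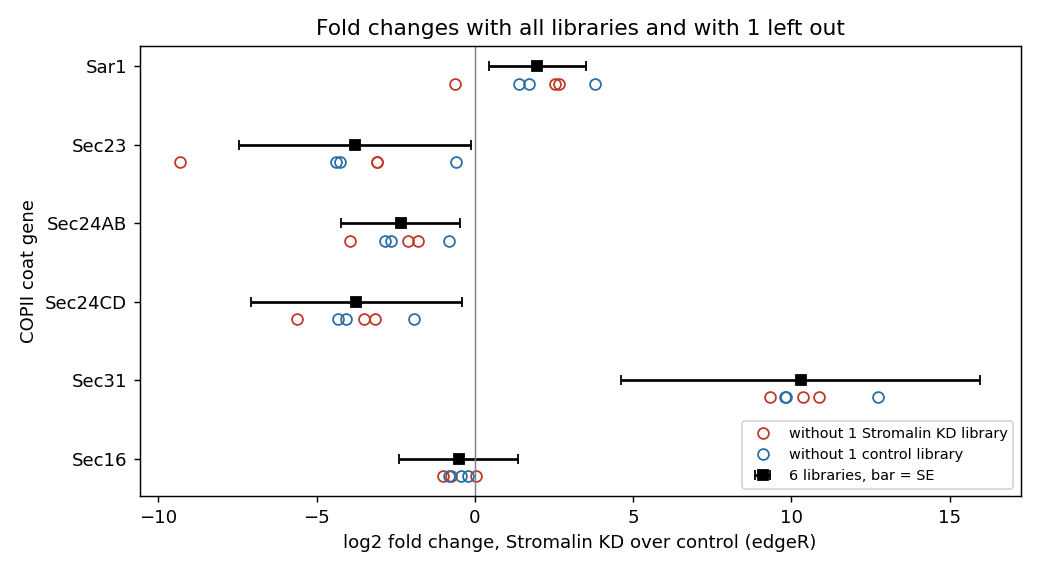
Log2 fold change of Stromalin KD over control (x axis) for the 6 tested COPII genes. Squares show all 6 libraries, with an approximate SE derived from the test statistic. Open circles show fits with 1 Stromalin KD library (red) or 1 control library (blue) left out. Sar1 moved to -0.64 and Sec16 to 0.05 without Stromalin KD 3. Sec31 lay between 9.33 and 12.74. With 0, 2 and 0 counts in control 1 to 3, it was bound to stay positive.

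The other genes of the early secretory pathway were followed in 7 lists of 105 genes, of which 102 were matched and 62 tested. In edgeR 0 passed an adjusted p of 0.05, and 3 (4.84%) had an unadjusted p under 0.05, namely Slh, alphaCOP and Nup75, beside 0.0489% and 3.23% of all tested genes. DESeq2 called 3 of the 40 list genes to which it gave an adjusted p (7.50%), beside 5.46% over all genes. These were gammaSnap1, Srp54k and Nup75, of which the first 2 are named after their values were seen. Each of these 3 genes, and Slh as well, passed the count filter only through the genotype in which it was high. Such a gene was bound to differ in that direction. Of the 62 genes 28 had a positive and 34 a negative fold change, with a median log2 fold change of -0.32.

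Among ER exit site partners of the coat, 5 of 6 matched genes were tested, 2 positive and 3 negative, with a median log2 fold change of -0.03. Rab1, the GTPase that tethers COPII vesicles on their way to the Golgi, averaged 403 ± 324 TPM in Stromalin KD and 504 ± 492 TPM in control (SD, n = 3 each). Sec12, the factor that switches Sar1 on, is listed as CG9175 and is named here after its values were seen. It had 0, 60 and 16 counts in Stromalin KD 1 to 3 (3.98 ± 4.73 TPM), against 0 counts in every control library. It passed the count filter only through Stromalin KD libraries. Stromalin KD 1 was at 0 like the controls, so the groups overlapped. Of the tethers and SNAREs that receive the vesicles, 13 were tested, 3 positive and 10 negative, with a median of -1.10. Slh, a regulator of SNARE pairing at the Golgi, had 8, 0 and 0 counts in Stromalin KD 1 to 3, against 89, 0 and 8292 counts in control 1 to 3, so control 3 held nearly all of it. gammaSnap1, which helps take SNARE complexes apart, had 0 counts in every Stromalin KD library, against 547, 506 and 0 counts in control 1 to 3. Control 3 was thus at 0 like the Stromalin KD libraries, and the groups overlapped.

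COPI coats carry material back to the ER, and 9 of their 12 genes were tested, 5 positive and 4 negative, with a median of 0.04. Its subunit alphaCOP had 349, 0 and 0 counts in Stromalin KD 1 to 3, against 0, 1238 and 9472 counts in control 1 to 3, and most of its counts were in control 3. For cargo receptors, 6 of 12 were tested, 4 positive and 2 negative, with a median of 0.77, and cni, which exports growth factor ligands from the ER, averaged 537 ± 894 TPM in Stromalin KD and 19.2 ± 33.2 TPM in control (SD, n = 3 each). Stromalin KD 3 held most of the cni counts, as it did for Sar1.

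On the entry side of the ER, 13 of 19 matched genes of the translocon, the signal recognition particle and signal peptidase were tested, 6 positive and 7 negative, with a median of -0.65. Sec61alpha, the translocon channel, averaged 313 ± 177 TPM in Stromalin KD and 232 ± 180 TPM in control (SD, n = 3 each). Srp54k, a subunit of the particle, had 0, 1 and 1 counts in Stromalin KD 1 to 3, against 1414, 507 and 466 counts in control 1 to 3, and its groups did not overlap. All 13 matched ER chaperones and unfolded protein response genes were tested, 6 positive and 7 negative, with a median of -0.52. Hsc70-3, the ER chaperone BiP, was detected in all 6 libraries at 1325 ± 765 TPM in Stromalin KD and 1089 ± 377 TPM in control (SD, n = 3 each), a difference within the spread. Of the Sec13 partners, Nup75 of the nuclear pore had 0, 1947 and 147 counts in Stromalin KD 1 to 3, against 0 counts in every control. Nearly all of its counts were in Stromalin KD 2, and Stromalin KD 1 was at 0 like the controls.

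**Figure D5:**
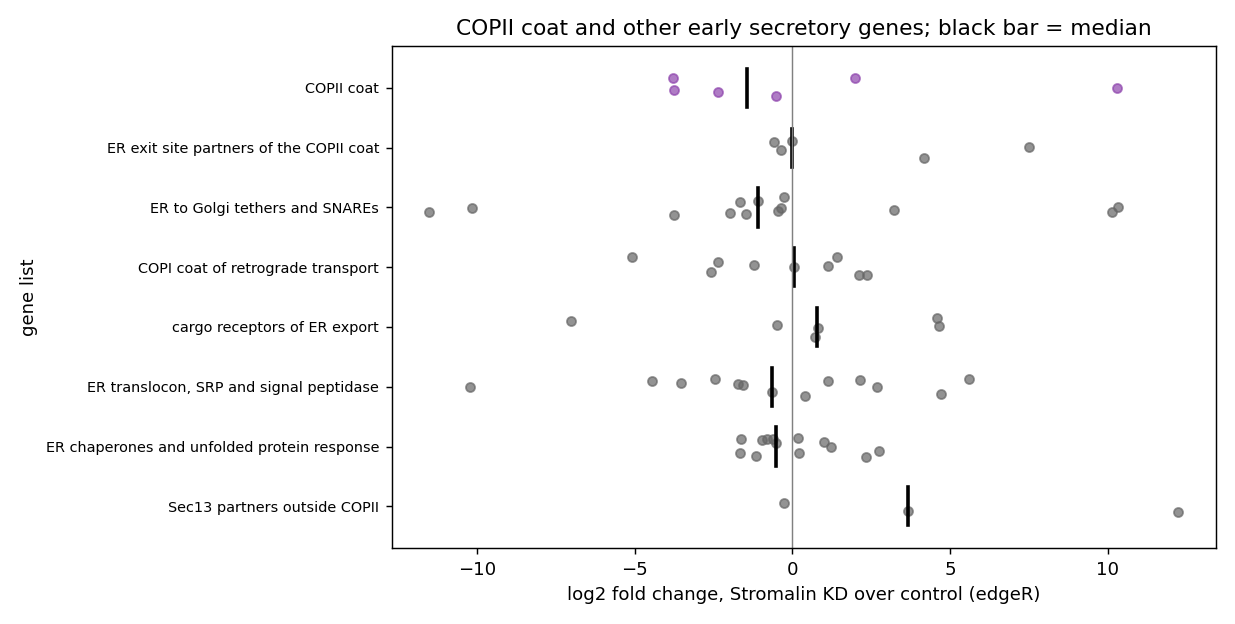
Log2 fold change of Stromalin KD over control (x axis) for the tested COPII genes (purple) and for each list of other early secretory genes (gray), 1 point per gene, with a black bar at the median of each list. Medians lay between -1.43 for the COPII coat and 0.77 for cargo receptors, except for the 3 tested Sec13 partners at 3.66.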

How the data were processed

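RNA was taken from 3 Stromalin KD and 3 control libraries of 25 neurons, grouped by the genotype in the labels. The deposited values are whole-number counts for each gene, a signal table in which the authors divided these counts by a DESeq2 size factor for each library, and TPM. HTSeq 0.9.1, DESeq2 and BDGP6 are named in the processing notes of the submitters. The aligner and strand setting were not given in these sources. Intervals cover counting error only. The deposited TPM fitted the merged exon length of each member in the Ensembl BDGP6 annotation (4148 bases for Sec31). Genes on the opposite strand overlap Sec31, Sec24AB and Sec24CD, all with 0 counts in these libraries. The authors' own fold changes and p-values were not used.

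The 4093 genes that reached 10 counts in 2 libraries or more were fitted in edgeR 4.0.16 (R 4.3.3) with TMM factors and the quasi-likelihood test, two-sided, with Benjamini-Hochberg adjustment and a threshold of 0.05. The common coefficient of variation was 228%. Normalized CPM were computed with the TMM-scaled library sizes. DESeq2 1.42.0, limma 3.58.1, other scalings and filters, and leaving out each library were alternatives. The steps were run on simulated data with a far smaller spread than these libraries. That run checked the code only. It does not show how the test performs at a coefficient of variation of 228%.

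The members and the lists were chosen with earlier results of these data known. Genes named are the 7 members, the 3 tested genes closest to each by correlation of log2(normalized CPM + 1), SA, and in each list those under an unadjusted p of 0.05 or else the highest in mean TPM. Of the list symbols 3 matched no gene.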

Additional observations from a re-analysis of the deposited data

How the results depend on the processing

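DESeq2 was the only alternative of those run that called a COPII gene (1, Sec31) or other early secretory genes (3), where edgeR under every scaling, filter and left-out library, and limma-trend on log2(TPM + 1) or log2(TPM + 0.1), called 0 of each. With the replicate number as a block (replicate block), 0 members were called too, with log2 fold changes of 9.83 for Sec31 and 2.16 for Sar1. The numbers mark no shared day, and the deviations of same-numbered libraries correlated at 0.01, -0.04 and -0.04 over 1001 genes. Signs turned only in fits that left out 1 library, over which Sec16 ran from -1.02 to 0.0452 (without Stromalin KD 3) and Sar1 from -0.64 to 3.78, with -0.64 also from the fit without Stromalin KD 3. Of 42 combinations of gene and library, 33 had at least 1 count, 26 at least 50 counts and 30 at least 1 TPM. With rRNA genes left out of TPM, the mean level was 892 TPM for Sar1 and 113 TPM for Sec16. Over all tested genes edgeR called 2 with TMM, 3 with RLE factors and 0 with TMMwsp factors, and DESeq2 called 160. With pools of 25 neurons and a coefficient of variation of 228%, a gene not called here may still differ in the neurons.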
